A study of Sus scrofa with 13 samples.

Results

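UCP3, uncoupling protein 3, was followed across 13 pig total RNA sequencing libraries. It was taken as 1 listed gene, ENSSSCG00000014834, out of 21607 Ensembl genes, which were listed together with 10813 long non-coding RNAs (lncRNAs). From Guizhou mini-pigs, 11 libraries covered single tissues. They held heart, liver, spleen, lung, kidney, testis, ovary, adipose tissue and longissimus dorsi, the long muscle of the back, at 240 days after birth, and longissimus dorsi also at day 0 and day 30. A further 2 libraries held mixed RNA of several breeds and time points, 1 from several tissues and 1 from longissimus dorsi. Each tissue or stage had 1 library, so no test between conditions was made, and the number of animals behind a library was not given in the sources used here. No genotype or treatment was named for any group.

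UCP3 belongs to the mitochondrial carrier family, whose members move small molecules across the inner membrane of mitochondria. Its relatives are UCP1, the heat-producing protein of brown fat, and UCP2, which is found in many tissues and in immune cells. In mammals UCP3 is known chiefly from skeletal muscle and brown fat. There its mRNA goes with the use of fatty acids as fuel, and it has been linked to fatty acid handling and to the limiting of oxidant production. Peroxisome proliferator-activated receptors (PPARs), which sense fatty acids, and the muscle factor MYOD1 are known to act on its promoter. The pig has long been known to lack a working UCP1.

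Expression levels were RPKM, reads scaled by gene length and by the total reads of the library. The RPKM values could be turned back into whole reads, which gave each level an exact Poisson 95% interval. These intervals cover counting error only, and not the differences between animals or between library preparations. By the recovered reads, single-tissue libraries held 3620348 to 12394421 reads counted in listed features, muscle at day 30 the fewest and testis the most. One read of UCP3 was worth 0.00762 to 0.0136 RPKM in them. Each of the 9 marker lists for organs was highest in the organ it was drawn up for. Albumin, a liver gene, nevertheless stood at 343 RPKM in lung against 5495 in liver.

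UCP3 was high in adipose tissue and at each muscle stage and close to 0 in the other organs. Adipose tissue gave 3.82 RPKM (490 reads, 95% interval 3.49 to 4.17). Muscle gave 2.63 RPKM at day 0 (320 reads, 2.35 to 2.94), 4.76 at day 30 (396 reads, 4.31 to 5.26) and 1.85 at day 240 (205 reads, 1.60 to 2.12). None of these 4 intervals overlapped. Muscle at day 30 was the highest library as deposited, and muscle at day 240 the lowest of the 4. The next level down was testis with 0.130 RPKM (17 reads, 0.0755 to 0.207), below which came lung with 0.103 (13 reads, 0.0551 to 0.177). Testis and lung could not be told apart, with a ratio of 1.25 (95% interval 0.573 to 2.80). Muscle at day 240 was 14.3-fold above testis (8.69 to 24.9), so a wide gap separated the 4 high libraries from the rest.

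In ovary and heart UCP3 rested on 2 reads each, 0.0271 RPKM (0.00329 to 0.0980) and 0.0163 RPKM (0.00198 to 0.0591). Liver, spleen and kidney had 0 reads. At their depth, 3 reads would have been 0.0286 RPKM in liver, 0.0242 in spleen and 0.0243 in kidney. The 95% interval of a count of 0 reached up to 0.0352 RPKM in liver, 0.0298 in spleen and 0.0298 in kidney. The 7 adult organs other than adipose tissue and muscle held 34 reads of UCP3 in all. The 4 high libraries held 1411. Of the RPKM summed over the 9 organs at day 240, 64.3% lay in adipose tissue and 31.1% in muscle, together 95.3%. In whole tissue, fewer cells of a type and less RNA per cell cannot be told apart.

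**Figure D1:**
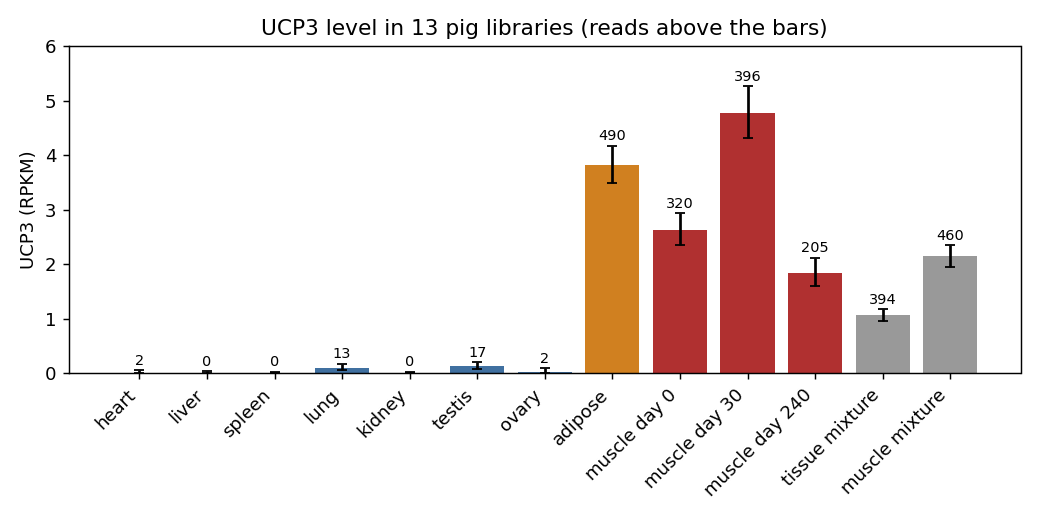
RPKM of UCP3 (ENSSSCG00000014834) in each of the 13 libraries as bars on a linear axis from 0, with exact Poisson 95% intervals as error bars and the recovered reads above them; adipose tissue is orange, the muscle stages are red, other organs blue and mixtures grey. Adipose tissue and the 3 muscle stages sit between 1.85 and 4.76 RPKM, and every other single-tissue library is at 0.130 RPKM or below, with 3 organs at 0 reads.

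UCP3 ranked high, but not among the most abundant genes, in the 4 libraries with a high level. In muscle at day 30 it was the 1443rd of 21607 Ensembl genes from the top, at the 93.3rd percentile. It ranked 2608 in adipose tissue (87.9th percentile), 3884 in muscle at day 240 (82.0th) and 4124 in muscle at day 0 (80.9th). The order by percentile was therefore not the order by RPKM at its lower end, as day 240 stood above day 0 by rank and below it by level. Among the Ensembl genes above 0 only, the percentiles were 89.6 at day 30, 83.3 in adipose tissue, 70.4 at day 240 and 68.8 at day 0. The median gene above 0 stood at 0.620 RPKM in muscle at day 30, 0.697 at day 240 and 1.14 at day 0.

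In the low organs UCP3 lay near the bottom of the genes that had any read. It stood at percentile 11.7 of the genes above 0 in testis, 10.7 in lung, 1.75 in ovary and 1.53 in heart. Counted among all listed genes, the same levels gave percentiles of 29.6, 30.4, 24.5 and 36.5, because many genes were at 0. A percentile over all listed genes is therefore no measure of expression in these organs. Kidney, spleen and liver, with UCP3 at 0, had it tied with all the other genes at 0, at percentiles of 12.5, 15.4 and 16.7.

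**Figure D2:**
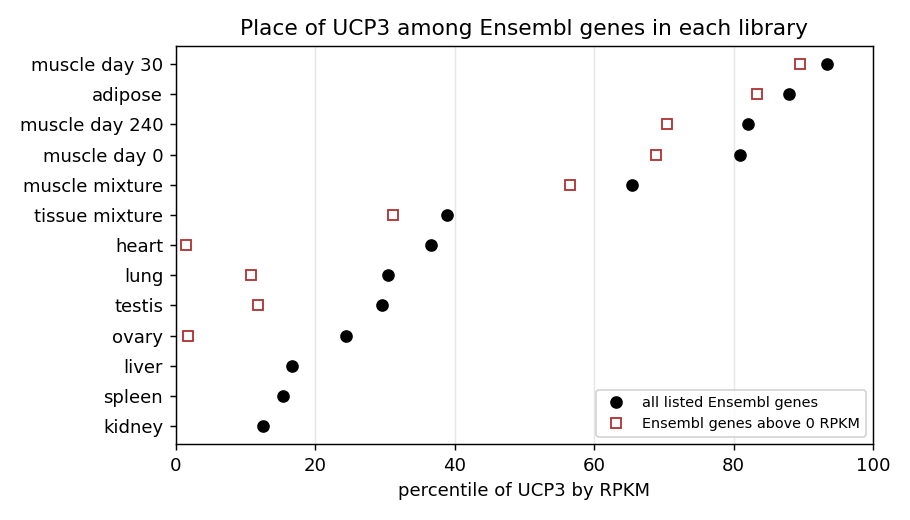
Percentile of UCP3 by RPKM in each library, among all 21607 listed Ensembl genes and among those above 0 RPKM in that library. UCP3 is at or above percentile 80.9 of all genes in adipose tissue and the 3 muscle stages, while in heart it is at 36.5 of all genes but 1.53 of the genes above 0.

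Over the 3 muscle stages UCP3 was highest at day 30. From day 0 to day 30 it went from 2.63 to 4.76 RPKM, a ratio of 1.81 (95% interval 1.56 to 2.10, counting error only). From day 30 to day 240 it went to 1.85 RPKM, so that day 30 was 2.58-fold above day 240 (2.17 to 3.07). Day 0 was 1.43-fold above day 240 (1.19 to 1.71). The first 2 differences share the library at day 30, so a particularity of that library would enter each of them. The stage labels could not be checked by early muscle markers. Of these, 2 of 5 were listed, the embryonic and neonatal myosins MYH3 and MYH8, and each was higher at day 240 than at day 0, against its name.

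Most genes differed in the other direction in the first month. On the log2(RPKM + 0.1) scale UCP3 differed by 0.83 from day 0 to day 30, while the median of 7581 Ensembl genes with at least 1 RPKM at either stage was -0.97. In that comparison 6.57% of genes were at least 2-fold higher at day 30 and 48.8% at least 2-fold lower (55.4% either way). UCP3 did not reach 2-fold as deposited but passed it after scaling, with 1.41 for the same total and 1.72 for the same median ratio. It lay at percentile 91.9 of the differences as deposited, and 611 genes (8.06%) were as far up or farther. From day 30 to day 240 its difference was -1.32 against a median of 0.38 over 6465 genes. A difference of at least 2-fold was downwards for 12.1% of them, UCP3 included, and upwards for 24.1% (36.2% either way), and 569 genes (8.80%) were as far down or farther. From day 0 to day 240 its -0.49 lay close to the median of -0.69, at percentile 58.4 of 7466 genes, of which 37.1% were at least 2-fold lower and 7.46% higher (44.6% either way).

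The peak at day 30 was shared with 1061 of 7843 Ensembl genes (13.5%) as deposited. For UCP3 the excess of day 30 over the higher of the other stages was 0.83 on the log2 scale, and 357 of the 7843 genes (4.55%) had at least that much. Since the bulk of genes shifted between the libraries, the stages were also compared after scaling. From day 0 to day 30 the median gene then stood at -0.40 with the same total and -0.12 with the same median ratio, and the split of genes 2-fold higher and lower went from 498 and 3703 to 946 and 2079 and to 1313 and 1510. From day 30 to day 240 it went from 1557 higher and 783 lower to 570 and 1584 with the same total and 1314 and 934 with the same median ratio. From day 0 to day 240 it went from 557 and 2773 to 502 and 2962 and to 1397 and 1182. The percentile of UCP3 among the genes hardly moved, at 91.9, 92.1 and 92.0 from day 0 to day 30. With all libraries brought to the same RPKM total, UCP3 was 2.15 at day 0, 5.91 at day 30 and 1.43 at day 240. With all libraries brought to the same median ratio over 10454 genes, it was 2.80, 9.43 and 3.32. Day 30 was highest on each scale. The order of day 0 and day 240 depended on it, with a log2 difference from day 0 to day 240 of -0.49 as deposited, -0.56 with the same total and 0.24 with the same median ratio. With scaling, 29.3% (same total) and 27.4% (same median ratio) of genes were highest at day 30, and 4.55% and 4.07% had an excess there of at least that of UCP3.

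**Figure D3:**
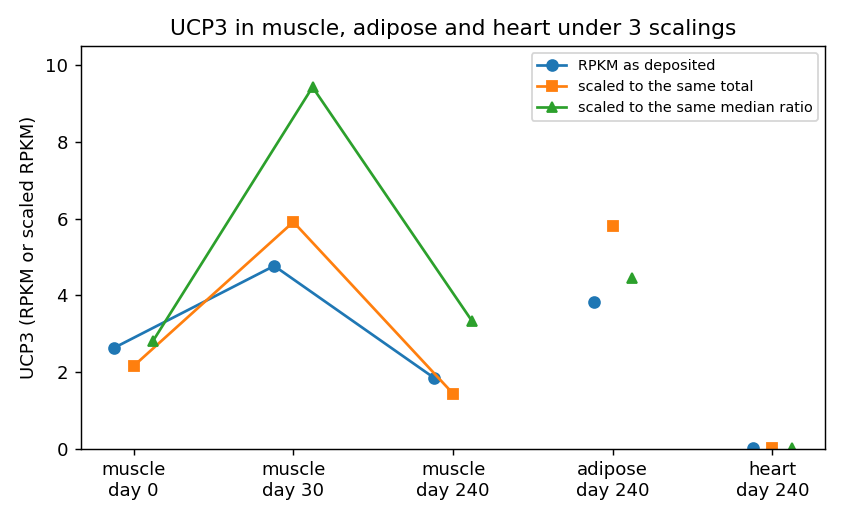
RPKM of UCP3 in muscle at day 0, day 30 and day 240, in adipose tissue and in heart, as deposited, scaled to the same RPKM total and scaled to the same median ratio. Day 30 is the highest on all 3 scales, and day 240 lies below day 0 as deposited (1.85 against 2.63) but above it with the same median ratio (3.32 against 2.80).

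Adipose tissue stood above muscle of the same age. Its 3.82 RPKM was 2.07-fold the 1.85 RPKM of muscle at day 240 (95% interval 1.75 to 2.44). It was 1.45-fold the level of muscle at day 0 (1.26 to 1.67), and muscle at day 30 was 1.25-fold the level of adipose tissue (1.09 to 1.43). With the same total, muscle at day 30 and adipose tissue stood at 5.91 and 5.81. With the same median ratio they stood at 9.43 and 4.46, so the size of this excess depended on the scale. A 2-fold excess in adipose tissue over muscle at day 240 was common, at 39.3% of 8176 genes, beside 17.2% with a 2-fold deficit (56.5% either way). With a difference of 1.01 on the log2 scale against a median of 0.57, UCP3 was at percentile 60.9. The difference was 1.95 with the same total and 0.41 with the same median ratio, so its direction held on each scale and its size did not. The genes 2-fold higher and lower in adipose tissue, 3215 and 1408 as deposited, were 5092 and 708 with the same total and 2313 and 2263 with the same median ratio, and UCP3 stayed at percentiles of 61.4 and 60.5.

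Heart, the other striated muscle, was unlike skeletal muscle in UCP3. Muscle at day 240 was 113-fold above heart (30.9 to 939) and adipose tissue 233-fold (64.3 to 1933), with wide intervals because heart had 2 reads. On the log2 scale adipose tissue minus heart was 5.07, at percentile 99.1 of 8660 genes. Of those, 20.4% were at least 2-fold higher and 21.6% lower in adipose tissue (42% either way), and 81 (0.935%) differed as much as UCP3 or more. Heart minus muscle was -4.06, at percentile 1.58 of 7798 genes, of which 12.3% were at least 2-fold lower in heart and 36.1% higher (48.3% either way). After scaling to the same total, 3803 genes were 2-fold higher and 976 lower in adipose tissue than in heart, against 1768 and 1868 as deposited. For heart and muscle, 2814 higher and 956 lower in heart became 1851 and 1811 with the same median ratio. UCP3 kept its direction in both comparisons, with 5.70 and 5.26 for adipose tissue minus heart and -3.75 and -4.84 for heart minus muscle after the 2 scalings. The order adipose tissue above muscle above heart was found for 973 of 9033 genes (10.8%).

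The muscle and fat markers were read beside these levels. Of the 8 skeletal muscle markers, 2 were listed under their symbol, the actin ACTA1 and the troponin TNNC2. Their summed level was 11.02 RPKM in adipose tissue, 545 in heart and 6060 to 13375 in muscle. In adipose tissue ACTA1 stood at 0.0971% and TNNC2 at 0.0781% of their level in muscle at day 240, where UCP3 stood at 207%. The calcium pump ATP2A1 was at 0.0648%, the slow troponin TNNT1 at 0.0437%, and MYOD1 was at 0 RPKM in adipose tissue. In RPKM this was 8.11 for TNNC2 and 2.91 for ACTA1 in adipose tissue, beside 3.82 for UCP3. FBP2, the muscle fructose bisphosphatase, stood at 2.97 RPKM there, 4.87% of its level in muscle. These muscle genes thus stood at 0% to 4.87% of their level in muscle at day 240, beside 207% for UCP3. The part of muscle RNA in the adipose level of UCP3 was not tested.

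Of the 7 fat cell markers, 3 were listed, the lipid droplet proteins PLIN1, CIDEC and PLIN4. They summed to 164 RPKM in adipose tissue and 4.14 to 7.91 in the muscle libraries, most of it PLIN4. PLIN1 in muscle at day 0, day 30 and day 240 was at 0.216%, 0% and 0.0236% of its level in adipose tissue. CIDEC was at 0.425%, 0% and 0.166%, and PLIN4 at 35.0%, 38.8% and 72.8%. PLIN1 and CIDEC, but not PLIN4, were at 0 at day 30, where UCP3 was highest and the counted reads were fewest. The part of fat cells in the muscle level of UCP3 was not tested. UCP1, whose product marks brown fat, and the adipocyte genes ADIPOQ, LEP and FABP4 were not matched by symbol and are not reported here. Markers of vessels and connective tissue, 3 of 6 listed, summed to 651 RPKM in adipose tissue and 39.7 in muscle at day 240, and their part in the UCP3 difference was not tested.

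UCP2, the closest relative measured, was highest in other organs than UCP3. It led in spleen with 9.18 RPKM (553 reads) and lung with 5.46 (334 reads), organs in which UCP3 had 0 and 13 reads. Ovary had 1.53 RPKM of UCP2 and kidney 1.16. In adipose tissue UCP2 was 0.288 RPKM (18 reads), so UCP3 exceeded it 13.3-fold. In muscle UCP2 was 1.301 RPKM at day 0 (77 reads), 0.272 at day 30 (11 reads) and 0.0926 at day 240 (5 reads). The excess of UCP3 over UCP2 in muscle was thus 2.02-fold at day 0, 17.5-fold at day 30 and 20.0-fold at day 240. In lung UCP2 exceeded UCP3 52.8-fold, and testis, with 17 reads of UCP3, had none of UCP2.

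The genes on either side of UCP3 did not share its profile. In the RefSeq annotation of assembly Sscrofa11.1, used for names and order only, UCP2 lies on one side of UCP3 and C2CD3, a gene of the centriole and cilium, on the other, neither overlapping it. C2CD3 ranged from 0.616 RPKM in muscle at day 0 to 6.15 in testis. Over the 11 single-tissue libraries Pearson's correlation of log2(RPKM + 0.1) with UCP3 was -0.58 for C2CD3 and -0.40 for UCP2. The other carriers of the uncoupling protein kind, SLC25A27 and SLC25A14, stood at 0.110 and 0.355 RPKM in muscle at day 240, against 1.85 for UCP3. SLC25A27 was highest in liver with 6.83 RPKM, where UCP3 had no read, and SLC25A14 in testis with 1.54.

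The pathway around UCP3 was described by 11 lists with 106 symbols, of which 68 matched 1 listed gene. For the 7 lists on mitochondrial carriers, fatty acid use, respiration and oxidant defence, 41 members had at least 1 RPKM at day 0 or day 30. Of them, 0 were at least 2-fold higher at day 30 and 32 at least 2-fold lower, beside 6.57% and 48.8% of all genes. All 41 lay below UCP3 in this difference, as did 91.9% of all genes, and the count was 41 of 41 under both scalings too. With the same total 16 members were 2-fold lower and 0 higher, beside 27.4% and 12.5% of all genes. With the same median ratio 8 were lower and 2 higher, beside 19.9% and 17.3% of all genes. From day 30 to day 240, 36 of 38 members lay above UCP3 under each of the 3 scalings, as did 91.2% of all genes as deposited. The other 2 were PDK4 and ANGPTL4. The place of these members on either side of UCP3 was thus close to that of genes at large.

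In fatty acid oxidation, the breakdown of fatty acids inside mitochondria, 8 of 11 members were 2-fold lower at day 30 and 0 higher, beside 48.8% and 6.57% of all genes, with a median of -1.45 beside -0.97. HADHA, the trifunctional enzyme's alpha subunit, was 114 RPKM at day 0, 30.0 at day 30 and 47.9 at day 240. ACADM, the medium-chain dehydrogenase, was 54.9, 21.4 and 42.9. As deposited, their lowest stage was the one at which UCP3 was highest. The number of members past 2-fold depended on the scaling, with 4 of 11 lower after scaling to the same total (27.4% of all genes) and 2 of 11 with the same median ratio (19.9%).

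Among the genes of fatty acid uptake and activation, 3 of 5 were 2-fold lower at day 30 and 0 higher, beside 48.8% and 6.57% of all genes. It was 1 lower with the same total (27.4% of all genes), and 0 lower and 1 higher with the same median ratio (19.9% and 17.3%). CPT1B, the muscle form of the enzyme that admits fatty acids to mitochondria, was 23.5, 10.6 and 7.83 RPKM over the 3 stages and 34.6 in heart, where UCP3 was near 0. ACSL1, which activates long-chain fatty acids, was 100 RPKM at day 0 and 71.3 in adipose tissue. Of the other carriers, 4 of 5 were 2-fold lower at day 30 (48.8% of all genes), 3 with the same total (27.4%) and 1 with the same median ratio (19.9%). SLC25A4, the muscle ATP/ADP carrier, was 172 RPKM in muscle at day 240 and 217 in heart but 4.60 in adipose tissue. CPT1B and SLC25A4 were thus high in heart, where UCP3 had 2 reads.

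PDK4 and ANGPTL4, known fatty acid responsive genes like UCP3, were the members furthest below their day 0 level at day 240 among those named here. PDK4, the kinase that turns off pyruvate use, was 277 RPKM in muscle at day 0, 94.2 at day 30 and 7.27 at day 240. ANGPTL4, an inhibitor of lipoprotein lipase, was 12.8, 2.57 and 0.199. Both were highest at day 0, whereas UCP3 was highest at day 30. In adipose tissue PDK4 was 13.9 and ANGPTL4 4.78 RPKM, each above muscle at day 240, as was UCP3.

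In the respiratory chain 10 of 12 members were 2-fold lower at day 30 than at day 0 and 0 higher, beside 48.8% and 6.57% of all genes, with a median of -1.22 beside -0.97. After scaling it was 4 of 12 with the same total (27.4% of all genes) and 2 of 12 with the same median ratio (19.9%). NDUFA9, a subunit of complex I, was 105, 18.6 and 68.2 RPKM over the stages and 20.6 in adipose tissue. UQCRC1 of complex III was 39.9, 27.5 and 43.3 RPKM. In adipose tissue against muscle at day 240, 9 of 12 members were 2-fold lower (17.2% of all genes) and 1 was higher (39.3%). With the same total 4 members were lower (8.66% of all genes) and with the same median ratio 11 (27.7%). Below UCP3 lay 11 of the 12 each time, beside 60.9% of all genes as deposited.

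Of the 5 members of oxidant defence compared, 3 were at least 2-fold higher in adipose tissue than in muscle at day 240 and 0 lower, beside 39.3% and 17.2% of all genes. CAT, catalase, was 115 RPKM in adipose tissue and 17.7 in muscle, and GPX4, which removes lipid peroxides, was 80.6 and 18.9. In fatty acid oxidation 10 of 11 members lay below UCP3 in that comparison. Over the 7 lists together 31 of 39 did, beside 60.9% of all genes. For adipose tissue minus heart it was 41 of 41, beside 99.1% of all genes.

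**Figure D4:**
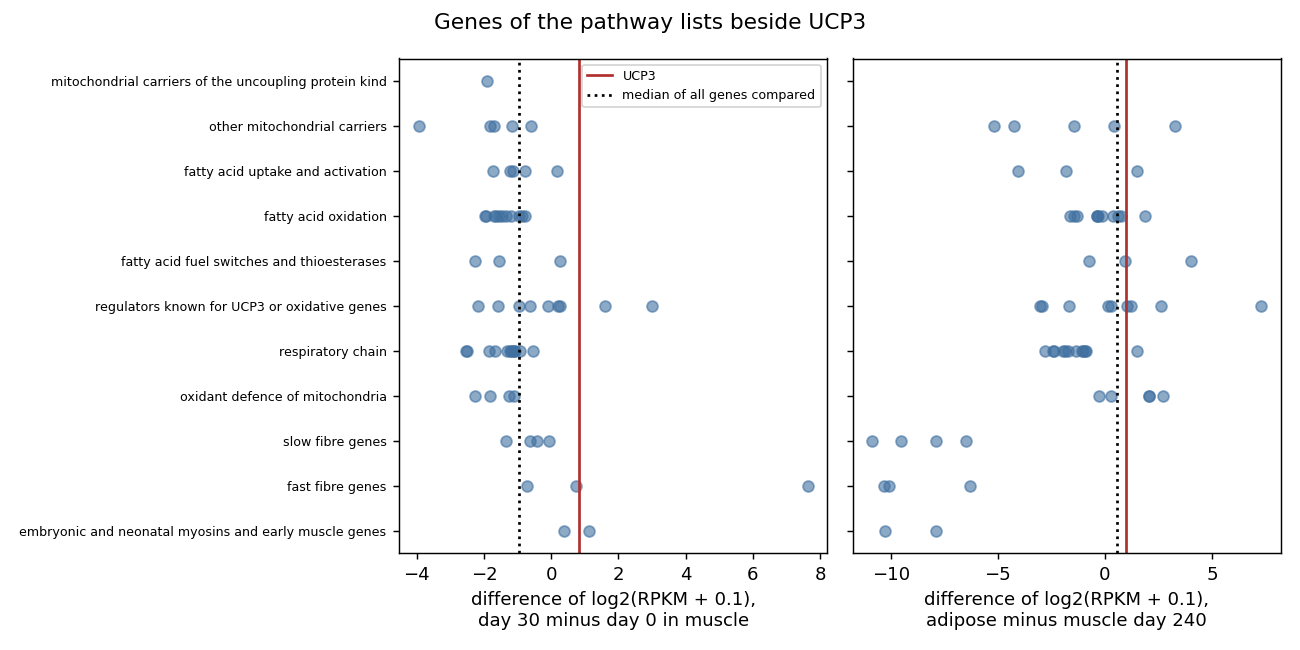
Differences of log2(RPKM + 0.1) for the members of the 11 pathway lists, day 30 minus day 0 in muscle on the left and adipose tissue minus muscle at day 240 on the right, with UCP3 as a solid line and the median of all genes compared as a dotted line. On the left all 11 fatty acid oxidation and all 12 respiratory chain members lie below UCP3 (0.83), as do 91.9% of all genes, and on the right 10 of 11 and 11 of 12 lie below it (1.01), beside 60.9% of all genes.

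Of the regulators known to act on UCP3 or on oxidative genes, 2 of 9 were 2-fold higher at day 30 than at day 0 and 2 lower, beside 6.57% and 48.8% of all genes. With the same total 2 were higher and 2 lower, beside 12.5% and 27.4%. With the same median ratio 4 were higher and 1 lower, beside 17.3% and 19.9%. PPARGC1A, the coactivator of mitochondrial genes, was highest at day 30 like UCP3, with 5.55 RPKM at day 0, 17.1 at day 30 and 3.76 at day 240. It departed from UCP3 elsewhere, with 0.376 RPKM in adipose tissue, 12.9 in heart and 15.8 in kidney. RXRG, a partner receptor of the PPARs, was 0.119, 1.65 and 2.30 RPKM over the stages. The receptor ESRRA was 4.09, 2.06 and 2.17 in muscle and 0.193 in adipose tissue.

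PPARG, the fat cell receptor, was 31.4 RPKM in adipose tissue and at most 0.517 in muscle. PPARD was 3.13 RPKM in adipose tissue and 0.892, 0.981 and 0.430 in muscle. PPARA was 1.0996 in adipose tissue and 3.43, 0.679 and 0.986 in muscle. MYOD1 was 0.870, 1.01 and 0.877 RPKM in muscle and 0 in adipose tissue and heart. Of the 4, PPARG and PPARD were higher in adipose tissue than at any muscle stage. Among the single-tissue libraries MYOD1 was found in muscle only. The other regulators were also present where UCP3 was low. PPARD was 1.18 RPKM in heart and 2.60 to 3.03 in the other low organs. PPARG was 14.2 in ovary and 11.1 in spleen, and PPARA was 5.55 in kidney and 3.97 in liver. Pearson's correlation with UCP3 was -0.08 for PPARG, -0.57 for PPARD, -0.10 for PPARA and 0.77 for MYOD1. PPARG, PPARD, PPARA and MYOD1 were chosen for their known role after their values were seen.

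The fibre-type genes separated muscle from adipose tissue. All 4 slow fibre and all 3 fast fibre members were at least 2-fold lower in adipose tissue than in muscle at day 240 (17.2% of all genes), where UCP3 was higher. From day 0 to day 30, 0 of 4 slow and 1 of 3 fast members were 2-fold higher, beside 6.57% of all genes. After either scaling it was 2 of the 3 fast members, beside 12.5% of all genes with the same total and 17.3% with the same median ratio. As deposited it was PVALB, the calcium buffer of fast fibres, with 0, 19.7 and 7.77 RPKM over the stages. Like UCP3 it was highest at day 30. MYH3 was 37.3, 80.7 and 96.3 RPKM over the stages and MYH8 1888, 2442 and 3695. Myosin genes lie in a cluster of near-identical copies among which reads may be split, so these values are uncertain.

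Genes with a profile like that of UCP3 were sought by Pearson's correlation of log2(RPKM + 0.1) over the 11 single-tissue libraries. Of 15323 genes with at least 1 RPKM in at least 1 of them, 5 reached 0.9, 20 reached 0.8, and 12721 were below 0. The correlations describe these libraries, which share the muscle and adipose samples, and carry no test. The highest was 0.98, for an unnamed gene, ENSSSCG00000006725. It stood at 2.28 RPKM in adipose tissue, 3.89, 4.08 and 3.54 in muscle, and at most 0.0776 in the other organs. As deposited it was nearly level over the stages, where UCP3 varied 2.58-fold. The second, ENSSSCG00000006723 with 0.95, had 0 reads in the other 7 organs and 5 to 49 reads in the 4 high libraries.

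The other genes described among the first 10 were of several kinds. LVRN, an aminopeptidase, was at 0.91, as was PPP1R1A, a phosphatase inhibitor, which had 3 to 21 reads in the high libraries. ZIC1, a transcription factor of early development, was at 0.89. FBP2 was at 0.88, ANGPTL1, a secreted angiopoietin-like protein, at 0.87, and KIAA0408 at 0.86. LVRN and PPP1R1A, like UCP3, had their highest muscle level at day 30, with 1.19, 1.55 and 0.336 RPKM over the stages for LVRN and 0.510, 2.61 and 0.931 for PPP1R1A. ZIC1 was 4.68, 1.12 and 5.16, lowest at day 30. FBP2 was 2.97 RPKM in adipose tissue but 61.0 in muscle at day 240. ANGPTL1 was 14.6 in adipose tissue and 2.91 to 3.98 in muscle, so likeness over all libraries did not mean the same order within the 4 high ones.

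**Figure D5:**
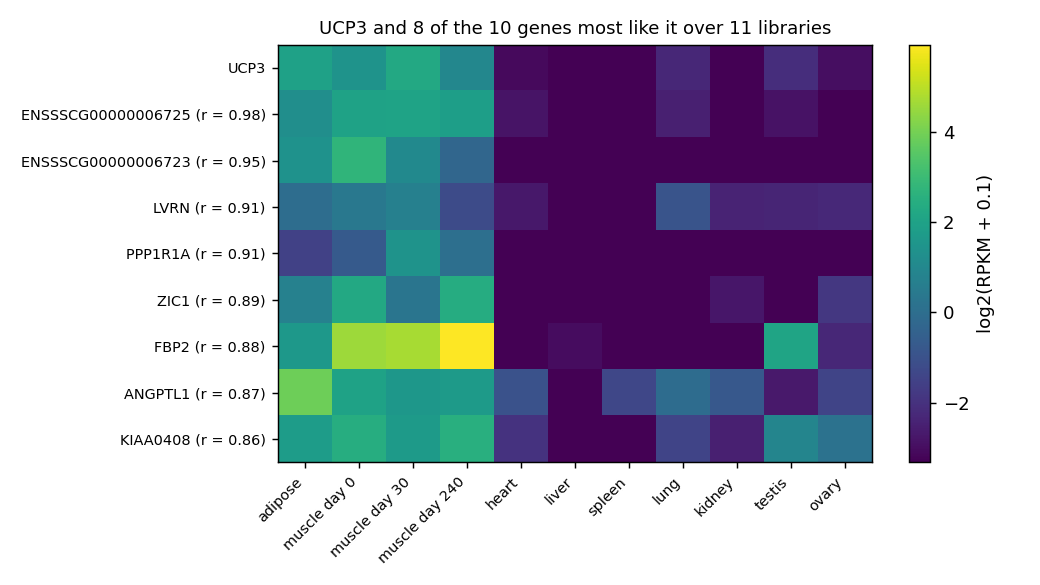
Heat map of log2(RPKM + 0.1), given by colour, for UCP3 and 8 of the 10 Ensembl genes with the highest Pearson correlation (r) with it, in rows, over the 11 single-tissue libraries, in columns. Each gene is higher in adipose tissue and the 3 muscle stages than in most other organs, but not always high there or near 0 elsewhere. PPP1R1A is at 0.242 RPKM in adipose tissue, and LVRN at 0.336 in muscle at day 240 beside 0.429 in lung. FBP2 is at 4.14 RPKM in testis beside 2.97 in adipose tissue, and KIAA0408 at 1.75 in testis. The order of the 3 stages differs between the genes.

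A stricter description of the pattern asked for at least 1 RPKM in adipose tissue and each muscle stage and under 0.2 RPKM in each of the 7 other organs. These limits were set after the values of UCP3 were seen. They were met by 4 of 15324 Ensembl genes (0.0261%), which were UCP3, ZIC1, ENSSSCG00000006725 and ENSSSCG00000004231, and by 0 lncRNAs. With 0.1 in place of 0.2 RPKM for the other organs, 1 gene was left, and UCP3 itself no longer met them, with 0.103 RPKM in lung and 0.130 in testis. ENSSSCG00000004231 was 1.14 RPKM in adipose tissue and 50.6 to 118 in muscle. ZIC1 was 1.56 in adipose tissue and 1.12 to 5.16 in muscle. As deposited, UCP3 was the one of the 4 with more in adipose tissue than in muscle at day 240.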

How the data were processed

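Total RNA depleted of ribosomal RNA was sequenced paired-end by the authors in strand-specific libraries (SMART or dUTP protocol, not named per library). They mapped reads with TopHat 1.3.2, assembled transcripts with Cufflinks, counted reads with htseq-count and deposited RPKM. Genome build and strand setting of the counting were not given in the sources used here, nor which reads make up the RPKM total.

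Groups came from the labels, with 1 library each. Whole reads were recovered from RPKM as the totals (21685316 to 38581416 per single-tissue library) and the smallest gene lengths that gave whole reads in every library, within 0.001. This succeeded for 29462 of 29462 features above 0, and the length for UCP3 was 3400 bases. The recovery was tested on simulated data, where 13 of 13 totals and the UCP3 reads of 13 of 13 libraries were found. For a ratio of 2 libraries the exact Clopper-Pearson 95% interval of the reads was used. Differences were taken of log2(RPKM + 0.1), which understates those of low genes, over Ensembl genes with at least 1 RPKM in at least 1 of the 2 libraries. No p-value was computed. Symbols were matched for 11654 of 21607 Ensembl genes.

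The gene and the lists were chosen with earlier results of these data known. Named genes were the up to 4 members per list highest in muscle at day 240, those with a 4-fold difference from day 0 to day 240, the 10 genes most like UCP3, and the neighbours. Other names were chosen after values were seen. Some genes that the rule names are not reported here. Alternatives were 2 scalings, other pseudocounts, filters, rankings and likeness measures. Python 3.11.15, numpy 2.4.6, pandas 2.3.3, scipy 1.17.1 and matplotlib 3.10.9 were used.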

Additional observations from a re-analysis of the deposited data

How the results depend on the processing

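No paired analysis was possible because there was 1 library per group, and for the same reason no library could be left out of a group. None of the alternatives turned a UCP3 difference around except the same median ratio from day 0 to day 240 (0.24 against -0.49). With the same total the UCP3 difference was 1.41 for day 30 minus day 0, -1.97 for day 240 minus day 30 and 1.95 for adipose tissue minus muscle, and with the same median ratio it was 1.72 for day 30 minus day 0 and 0.41 for adipose tissue minus muscle. A pseudocount of 1 gave -1.02 from day 30 to day 240 and 0.76 for adipose tissue minus muscle, which lost the 2-fold limit. Genes past 2-fold in either direction numbered 4201 (day 0 to 30), 2340 (day 30 to 240), 3330 (day 0 to 240), 4623 (adipose tissue and muscle), 3636 (adipose tissue and heart) and 3770 (heart and muscle). A pseudocount of 1 made this 2582, 1204 and 1882 for the stages, 2319 for adipose tissue and heart, and 2371 for heart and muscle. A filter of 0.1 RPKM or none gave 6751, 4809, 5952, 8128, 6443 and 6811 in that order, as both let in the same genes past 2-fold. Of the 10 genes most like UCP3, 5 were among the first 10 by Spearman's correlation and 6 over the 9 organs at day 240. Genes highest at day 30 numbered 2301 with the same total and 2147 with the same median ratio against 1061, which was added after the data were seen. The cause of these shifts was not tested. In heart and ovary, 2 reads set the limit of what could be said.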

Other observations

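The libraries of mixed RNA, with several breeds and time points in each, were left out of the comparisons and correlations given above. UCP3 was 2.15 RPKM in the mixture of longissimus dorsi (460 reads, 95% interval 1.96 to 2.35) and 1.07 in the mixture of tissues (394 reads, 0.967 to 1.18), a ratio of 2.01 (1.75 to 2.30). The muscle mixture was 1.16-fold the level of muscle at day 240 (0.984 to 1.38) and lay within the range of the 3 stages as deposited. With the same total it was level with the lowest stage, at 1.431 against 1.433 at day 240. With the same median ratio it lay below every stage, at 1.11 against 2.80 at day 0, the lowest. By rank it stood at the 65.4th percentile of Ensembl genes in the muscle mixture and the 38.9th in the tissue mixture, below the 80.9th of the lowest muscle stage. UCP2 was 0.729 RPKM in the muscle mixture and 5.26 in the tissue mixture, so UCP3 was 2.95-fold above UCP2 in the former.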
